A study of Mus musculus with 13 samples.

Results

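The unfolded protein response genes and endoplasmic reticulum (ER) chaperones were described as a list of 32 mouse genes in enamel organs, matched by gene symbol to the rows of a count table. All 32 were found among the 48709 Ensembl mouse genes of the table. The list was compiled by function and holds 3 stress sensors, 4 transcription factors, 8 genes of the ER's HSP70 and HSP90 system, 7 lectin chaperones, disulfide isomerases and their partners, 5 genes of ER-associated degradation and 5 stress-response outputs.

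The enamel organ is the dental epithelium that deposits and then hardens enamel. It was dissected from mandibular incisors at postnatal day 11, and its RNA was sequenced in bulk. Het stands for 5 mice heterozygous for the G357W substitution in Tgfbr2, the type II TGF-beta receptor, with 1 wild-type allele left. WT stands for 8 littermates with 2 wild-type alleles. No treatment is given for either genotype, the substitution is carried by the whole mouse rather than by the epithelium alone, and the sex of the mice is not used here. Heterozygous changes of this receptor cause Loeys-Dietz syndrome in people, and the question is what this mouse model changes in enamel organ transcripts.

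Secreted proteins enter the ER unfolded and are folded there by chaperones, glycosylation-linked lectins and disulfide isomerases, while proteins that fail are sent back to the cytosol for degradation. When unfolded proteins accumulate, the sensors IRE1, PERK and ATF6 are released from the chaperone BiP and start 3 arms of a response. IRE1 splices Xbp1 mRNA, PERK slows translation and favours ATF4, and cleaved ATF6 enters the nucleus, so that chaperone, degradation and amino acid genes are transcribed. Ameloblasts secrete large amounts of amelogenin, ameloblastin and enamelin, and ER stress in these cells is known from mouse models in which mutant enamel proteins are retained. Gene counts carry no measure of Xbp1 splicing, of eIF2alpha phosphorylation or of ATF6 cleavage, so only transcript levels are described.

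Depth was 20266079 to 26122340 counts for the Het libraries and 18852382 to 26508410 counts for the WT libraries. All 32 members passed the filter on low counts, as did 16328 genes in all. A list of 20 enamel organ markers, headed by the enamel matrix genes, summed to 223018 to 334346 CPM (counts scaled to library size) in Het and 202935 to 346564 CPM in WT, which fits the tissue label, and osteoblast markers were also present, at 3771 to 7779 CPM in Het and 4391 to 9364 CPM in WT. Columns of the table carry a number pair, such as 4-2, whose first number (1, 4 or 5) is called the library prefix here. No source used here explains it. There are 1 Het and 3 WT libraries with prefix 1, 2 Het and 3 WT with prefix 4, and 2 Het and 2 WT with prefix 5.

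No member differed between Het and WT enamel organs past the threshold. Of the 32 members, 0 were called by edgeR's quasi-likelihood test at an adjusted p under 0.05 (Benjamini-Hochberg over all genes tested), where 14 of 16328 genes were called, a background of 0.0857%. At an unadjusted p under 0.05 the members' count was 1 of 32, which is 3.12%, against 6.90% of all genes tested. DESeq2 also called 0 members, with a background of 0.481% of 15375 genes and 1 member at an unadjusted p under 0.05, and limma-voom called 0 members with 2 at an unadjusted p under 0.05. Members' adjusted p ran from 0.697 to 0.999 with edgeR. In bulk tissue, fewer cells of a type and less RNA per cell cannot be told apart, and this holds for every level given here. P-values measure the spread between these libraries, each taken as 1 mouse.

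Differences between the genotypes were small in size. A positive log2 fold change (Het over WT) was found for 19 of 32 members (59.4%), against 49.1% of all genes, and 13 members had a negative one. The median log2 fold change was 0.05 over members and -0.0044 over all genes tested, and the median size regardless of sign was 0.123 against 0.136. The members' median turned to -0.040 without the libraries of prefix 4, and was 0.116 with total library size alone, a scaling that put the median of all genes at 0.066. For 25 of the 32 members (78.1%) the 95% interval of the fold change lay within 1.5-fold in both directions, which held for 58.7% of all genes. The interval of the other 7 reached beyond it. The median coefficient of biological variation, the spread between libraries beyond counting noise, was 16.6% over members and 20.4% over all genes. A smaller one gives narrower intervals, so the shares within 1.5-fold do not compare sizes of change. The ranges of Het and WT libraries overlapped for every member, so that 0 of 32 members had separate ranges, against 0.490% of all genes. The plot of fold changes by role shows every member's estimate with its interval.

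**Figure D1:**
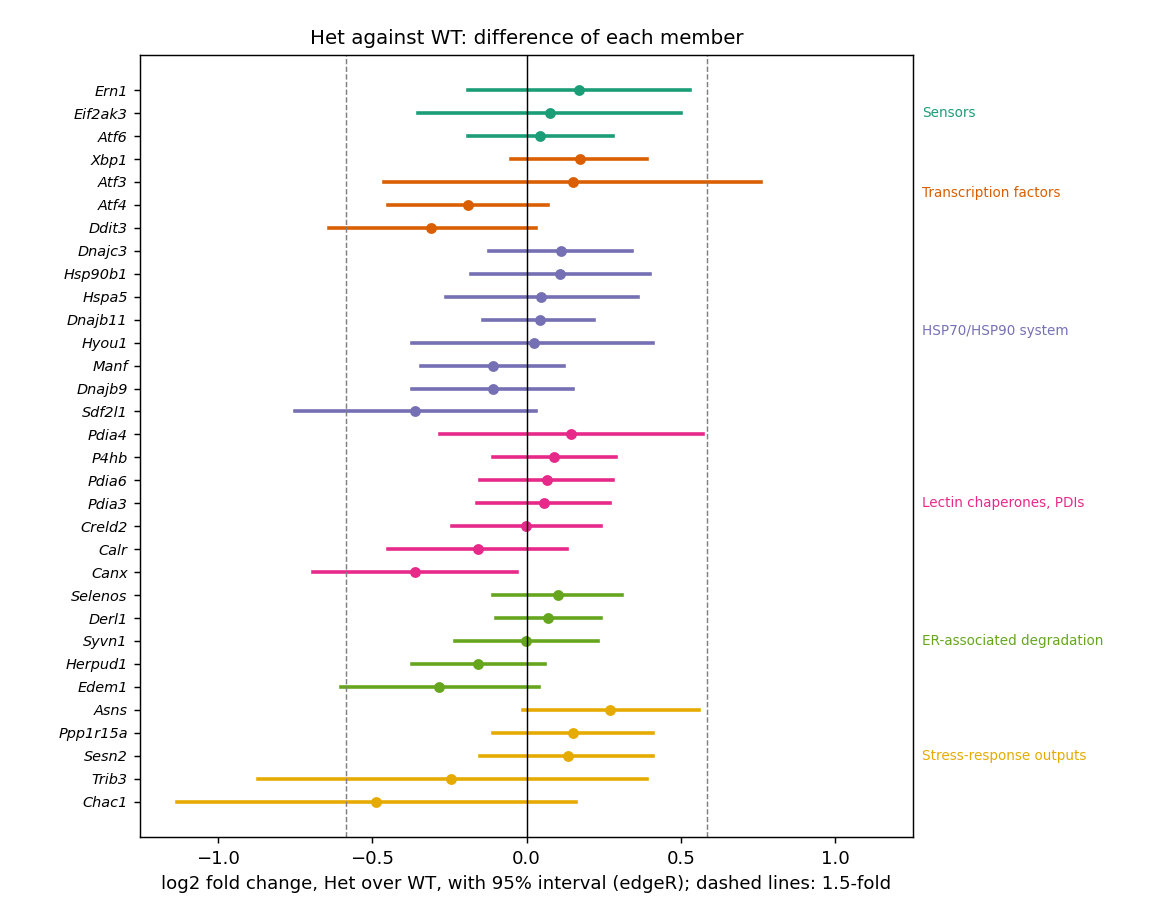
Log2 fold change of each member, Het over WT, from edgeR, grouped and coloured by role. Points are estimates from 5 Het and 8 WT libraries, bars are 95% intervals, and dashed lines mark 1.5-fold. All intervals but that of Canx (-0.69 to -0.03) include 0, and those of Chac1, Trib3 and Atf3 are the widest.

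Members differed among themselves in level by over 2 orders of magnitude when scaled to exon length as TPM (transcript level relative to all transcripts of a library). The ER chaperone BiP, encoded by Hspa5, had the highest mean in both genotypes, at 542 ± 70.1 TPM in Het (SD, n = 5) and 507 ± 83.9 TPM in WT (SD, n = 8), which is rank 127 of 48349 genes with a length. Canx, which encodes the membrane-bound lectin chaperone calnexin, averaged 376 ± 57.2 TPM in Het, the fourth highest there, and 468 ± 124 TPM in WT, the second highest there. The disulfide isomerase genes Pdia3 (423 ± 35.6 TPM in Het, 391 ± 33.1 TPM in WT) and P4hb (421 ± 30.6 TPM in Het, 380 ± 23.5 TPM in WT) were the other members at this level. In WT, the means of neighbours among these 4 differed by less than the SD of at least 1 of the pair. Eif2ak3, which encodes PERK, averaged 3.01 ± 0.89 TPM in Het and 2.72 ± 0.728 TPM in WT. Atf3, a stress-inducible transcription factor gene, averaged 2.97 ± 1.43 TPM in Het and 2.59 ± 0.99 TPM in WT, and had the lowest mean of the members in WT and over all 13 libraries (rank 11727). In Het the lowest mean was that of Trib3, at 2.64 ± 0.987 TPM in Het and 3.05 ± 1.29 TPM in WT. Among transcription factors, Xbp1 (116 ± 10.3 TPM in Het, 99.4 ± 14.3 TPM in WT) and Atf4 (88.3 ± 15.8 TPM in Het, 96.4 ± 19.4 TPM in WT) stood far above Ddit3 (5.66 ± 0.446 TPM in Het, 6.74 ± 0.969 TPM in WT).

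**Figure D2:**
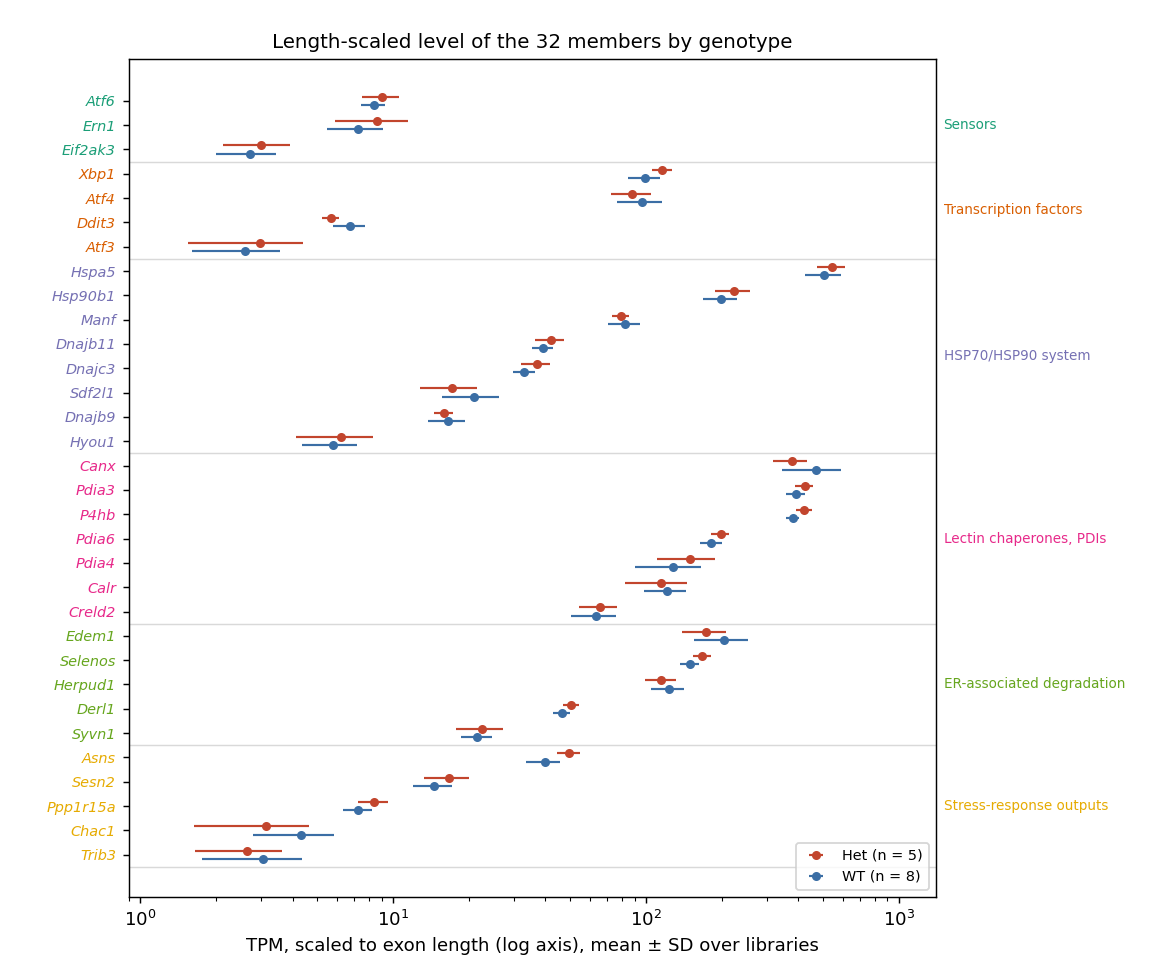
Length-scaled level of the 32 members in TPM on a log axis, Het above WT for each gene. Points are means and bars SD over 5 Het and 8 WT libraries, grouped by role. Chaperone and isomerase genes are highest, with Hspa5 at 542 in Het and 507 in WT, whereas the means of Eif2ak3 (3.01 in Het, 2.72 in WT) and Atf3 (2.97 in Het, 2.59 in WT) are among the lowest.

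All 3 sensor genes were expressed at low levels, and none differed between genotypes past the threshold. Values per library are log2 CPM, which compare libraries and not genes, and Het libraries are listed in the order 1-2, 4-2, 4-5, 5-5 and 5-6 throughout. Ern1, which encodes the kinase and nuclease IRE1alpha, read 4.33, 4.87, 4.88, 4.12 and 4.27 in Het, against a lowest of 3.89, a median of 4.28 and a highest of 4.92 in WT. The Het libraries of prefix 4 were near the top of the WT range and the other 3 near its middle, with complete overlap. This gave a log2 fold change of 0.17 ± 0.17 (SE) and an adjusted p of 0.872.

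Eif2ak3 read 2.17, 2.98, 2.78, 2.21 and 2.64 in Het, against 1.74, 2.53 and 2.97 in WT (lowest, median, highest). WT 1-1 was the lowest library and the genotypes overlapped over almost all of their range. Het over WT, this is 0.08 ± 0.20 on the log2 scale, with an adjusted p of 0.961. Atf6, the gene of the membrane-tethered transcription factor that is cleaved under stress, read 4.90, 4.91, 4.70, 4.87 and 4.50 in Het, against 4.45, 4.72 and 4.98 in WT. Here too the ranges overlapped, at a log2 fold change of 0.04 ± 0.11 and an adjusted p of 0.955. All 3 estimates turned negative when the 5 libraries of prefix 4 were left out, with values of -0.12 for Ern1, -0.16 for Eif2ak3 and -0.07 for Atf6.

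The 4 transcription factor genes split into 2 with positive and 2 with negative differences, none past the threshold. Xbp1, the target of IRE1's splicing, read 7.09, 6.88, 6.92, 6.82 and 7.10 in Het, against 6.47, 6.81 and 7.01 in WT. The Het libraries 1-2 and 5-6 lay above every WT library and the other 3 inside the WT range. Its log2 fold change was 0.17 ± 0.10, with an adjusted p of 0.778, and Het minus WT was 0.12, 0.29 and 0.20 within prefixes 1, 4 and 5. With the prefix as a term the estimate was 0.22, at an adjusted p of 0.42.

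Atf4, whose protein drives amino acid and stress genes after PERK activation and is controlled mostly in translation, read 5.99, 6.32, 6.18, 5.98 and 5.97 in Het, against 5.87, 6.25 and 6.71 in WT. Only WT libraries exceeded 6.32, and the ranges overlapped below that. The log2 fold change was -0.19 ± 0.13, with an adjusted p of 0.793. Ddit3, which encodes CHOP, a factor of prolonged ER stress, read 1.66, 1.60, 1.70, 1.89 and 1.72 in Het, against 1.79, 1.93 and 2.30 in WT. Every Het library other than 5-5 lay below all WT libraries, and Het 5-5 lay inside the WT range. Its log2 fold change was -0.31 ± 0.16, with an unadjusted p of 0.0688 and an adjusted p of 0.749, and Het minus WT was -0.40, -0.29 and -0.22 within prefixes 1, 4 and 5.

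Ddit3 had 66 to 90 counts per library in Het and 68 to 122 counts in WT, so its estimate rests on few reads. Ddit3 overlaps by 68 bases with Mars, the methionyl-tRNA synthetase gene on the other strand, whose median count was 422% of that of Ddit3. The library kit does not mark strand, so reads of the overlap cannot be told apart. Atf3, the fourth factor gene, read 0.52, 0.39, 1.82, 1.42 and 0.98 in Het, against 0.20, 0.92 and 1.67 in WT. Libraries of both genotypes were scattered over the whole range, at counts of 29 to 98 in Het and 22 to 63 in WT. With a log2 fold change of 0.15 ± 0.29 and an adjusted p of 0.941, the estimate turned to -0.10 without Het 4-5 and to -0.03 without the libraries of prefix 4.

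Hspa5 (ENSMUSG00000026864, chr2:34771970-34777547 on GRCm38) leads the HSP70 and HSP90 system, which binds and releases unfolded chains. Its 250 bases before the RefSeq start site (chr2:34771840-34772089, plus strand, RefSeq GRCm38.p6) are shown because they hold the kind of ER stress element through which ATF6, with NF-Y, is known to act on chaperone genes. Capitals mark the 2 parts of the element, CCAAT and CCACG, separated by 9 bases.
Hspa5: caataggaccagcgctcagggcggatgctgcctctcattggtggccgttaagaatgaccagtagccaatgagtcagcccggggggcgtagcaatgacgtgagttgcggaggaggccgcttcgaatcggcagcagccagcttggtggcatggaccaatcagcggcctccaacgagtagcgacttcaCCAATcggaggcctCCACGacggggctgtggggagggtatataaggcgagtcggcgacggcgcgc

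Hspa5 read 9.70, 9.21, 9.33, 9.82 and 9.72 log2 CPM in Het, against a lowest of 8.99, a median of 9.55 and a highest of 9.78 in WT. High and low libraries occurred in both genotypes, and the Het range lay almost wholly inside the WT range. The log2 fold change was 0.05 ± 0.15, with a 95% interval of -0.26 to 0.36 and an adjusted p of 0.969. Hsp90b1, which encodes the ER's HSP90, GRP94, read 8.32, 7.86, 8.02, 8.56 and 8.20 in Het, against 7.80, 8.08 and 8.45 in WT. Only Het 5-5 exceeded the WT range. For Hsp90b1 the log2 fold change was 0.11 ± 0.14, with an adjusted p of 0.901.

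The other 6 genes of this system covered differences from -0.36 to 0.11. Sdf2l1, which encodes a partner of ER HSP40 co-chaperones, read 2.95, 2.74, 2.78, 2.25 and 2.41 in Het, against 2.51, 2.87 and 3.57 in WT. The Het libraries of prefix 5 lay below every WT library and the others inside the WT range. Its log2 fold change was -0.36 ± 0.19, with an unadjusted p of 0.0688 and an adjusted p of 0.749, and Het minus WT was -0.14, -0.16 and -0.50 within prefixes 1, 4 and 5. Dnajc3, a co-chaperone gene also known as P58IPK, read 5.95, 5.55, 6.00, 6.20 and 6.12 in Het, against 5.71, 5.83 and 6.10 in WT. Het libraries were both the highest and the lowest, at a log2 fold change of 0.11 ± 0.11 and an adjusted p of 0.863.

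Manf, a secreted ER stress factor gene, read 6.36, 6.41, 6.50, 6.72 and 6.66 in Het, against 6.41, 6.60 and 7.06 in WT, and its log2 fold change was -0.11 ± 0.11 with an adjusted p of 0.872. The highest library was WT 5-3. The annotated gene model of Manf also spans Dcaf1 and Rbm15b, which affects its length and therefore its TPM. The HSP40 genes Dnajb9 and Dnajb11 had log2 fold changes of -0.11 ± 0.13 and 0.04 ± 0.09. Hyou1, which encodes the nucleotide exchange factor GRP170, had 0.02 ± 0.19, an estimate that became -0.24 without prefix 4.

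Canx (ENSMUSG00000020368, chr11:50293961-50325673 on GRCm38) was the member of smallest p in the comparison, with a negative estimate that did not pass the threshold. Calnexin holds glycoproteins with trimmed glycans until they fold. Canx read 8.98, 9.37, 9.12, 8.98 and 9.44 log2 CPM in Het, against a lowest of 9.04, a median of 9.62 and a highest of 9.97 in WT. Het 1-2 and 5-5 lay below every WT library, and 5 of the 8 WT libraries lay above every Het library. The log2 fold change was -0.36 ± 0.16, with a 95% interval of -0.69 to -0.03, an unadjusted p of 0.035 and an adjusted p of 0.697. Within prefixes 1, 4 and 5, Het minus WT was -0.47, -0.46 and -0.12, and over all alternative fits the estimate ran from -0.44 to -0.29 with adjusted p from 0.416 to 0.993.

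Edem1, which encodes a lectin that hands misfolded glycoproteins to degradation, also had a negative estimate. It read 8.16, 8.78, 8.32, 8.40 and 8.87 in Het, against 8.43, 8.81 and 9.29 in WT. Het 1-2, 4-5 and 5-5 lay below every WT library and the other Het libraries inside the WT range. Its log2 fold change was -0.28 ± 0.15, with an adjusted p of 0.757, and Het minus WT was -0.66, -0.31 and 0.01 within prefixes 1, 4 and 5. Canx and Edem1 were both highest in WT 1-1 (9.97 for Canx, 9.29 for Edem1) and next highest in WT 4-4 (9.76 and 8.94). The summed level of 11 endothelium and pericyte markers was also highest in these libraries, at 12971 CPM in WT 1-1 and 14419 CPM in WT 4-4, against 7281 to 10545 CPM over the Het libraries. In WT 4-1, 4-3 and 5-3, where Canx was also above every Het library (9.63, 9.72 and 9.61), this sum was 8164, 9532 and 9121 CPM. These sums lay inside the Het range. The sum of immediate-early genes was highest in WT 1-1 at 1248 CPM. Next was Het 4-2 at 1127 CPM, where Canx was 9.37 and Edem1 8.78. The part of either sum in the values of Canx and Edem1 was not tested.

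The other lectin chaperone and isomerase genes lay close to WT. Calr, which encodes calreticulin, the soluble counterpart of calnexin, read 6.69, 6.99, 7.03, 6.43 and 6.43 in Het, against 6.62, 6.80 and 7.33 in WT. The Het libraries of prefix 5 were below the WT range, and the log2 fold change was -0.16 ± 0.14 with an adjusted p of 0.847. Pdia4, a disulfide isomerase gene with a wide spread, read 7.28, 6.45, 6.74, 7.18 and 6.57 in Het, against 6.17, 6.57 and 7.36 in WT. All Het values lay inside the WT range, at a log2 fold change of 0.14 ± 0.20 and an adjusted p of 0.909.

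Pdia3, the glycoprotein-directed isomerase that works with both lectins, read 8.94, 8.59, 8.70, 8.81 and 8.82 in Het, against 8.50, 8.77 and 8.84 in WT, at a log2 fold change of 0.06 ± 0.10 and an adjusted p of 0.937. Pdia6 read 7.96, 7.82, 7.83, 8.12 and 7.92 in Het, against 7.63, 7.84 and 8.13 in WT, at 0.07 ± 0.10 and an adjusted p of 0.917. Both genes overlapped between genotypes in most libraries. P4hb, a disulfide isomerase that also serves in prolyl hydroxylation of collagen, had a log2 fold change of 0.09 ± 0.10, and Creld2, which encodes a secreted ER stress protein, had -0.00136 ± 0.12.

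Among the 5 genes of ER-associated degradation, 2 estimates were positive and 3 negative, none past the threshold. Herpud1, which encodes a membrane organiser of the degradation complex, read 6.57, 6.63, 6.28, 6.31 and 6.50 in Het, against 6.42, 6.55 and 6.95 in WT. Het 4-5 and 5-5 lay below every WT library. Herpud1 had a log2 fold change of -0.16 ± 0.10, with an adjusted p of 0.791, and Het minus WT was -0.11, -0.14 and -0.14 within prefixes 1, 4 and 5. Selenos, which encodes a selenoprotein of the exit complex, had 0.10 ± 0.10, and Derl1, the gene of the channel component derlin-1, had 0.07 ± 0.08, the smallest SE of all members. Syvn1, which encodes the ubiquitin ligase HRD1, had -0.00189 ± 0.11. Syvn1 overlaps Mrpl49 by 91 bases on the other strand, and the median count of Mrpl49 was 70.1% of that of Syvn1.

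The 5 stress-response outputs included the largest estimate in each direction among the 32 members, both short of the threshold. Asns (ENSMUSG00000029752, chr6:7675169-7693254 on GRCm38), the asparagine synthetase gene that ATF4 is known to induce, read 5.44, 5.17, 5.34, 5.75 and 5.72 log2 CPM in Het, against 4.62, 5.27 and 5.47 in WT. Both Het libraries of prefix 5 lay above every WT library and the other 3 inside the WT range. The log2 fold change was 0.27 ± 0.14, with an unadjusted p of 0.0613 and an adjusted p of 0.741. Het minus WT was 0.12, 0.34 and 0.27 within prefixes 1, 4 and 5. With the prefix as a term the estimate was 0.26, and its adjusted p of 0.363 was the smallest of any member over the 27 fits run.

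Chac1, which encodes a glutathione-degrading enzyme downstream of ATF4 and CHOP, read 0.02, 0.56, 1.41, 0.15 and 1.42 in Het, against 0.21, 1.33 and 1.88 in WT. Het 1-2 and 5-5 lay below every WT library, but Het 4-5 and 5-6 lay above the WT median. The log2 fold change was -0.49 ± 0.31, with an adjusted p of 0.786, on counts of 20 to 73 in Het and 25 to 74 in WT. Het minus WT was -1.39, -0.57 and 0.29 within prefixes 1, 4 and 5, so the direction was not shared. Trib3, a pseudokinase gene induced by CHOP, had -0.24 ± 0.30 on counts of 28 to 79 in Het and 24 to 73 in WT. Sesn2, a sestrin gene, and Ppp1r15a, which encodes the phosphatase subunit GADD34 that ends the translational block, had 0.13 ± 0.13 and 0.15 ± 0.13. Ppp1r15a overlaps Tulp2 by 717 bases on the other strand, and the median count of Tulp2 was 375% of that of Ppp1r15a.

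**Figure D3:**
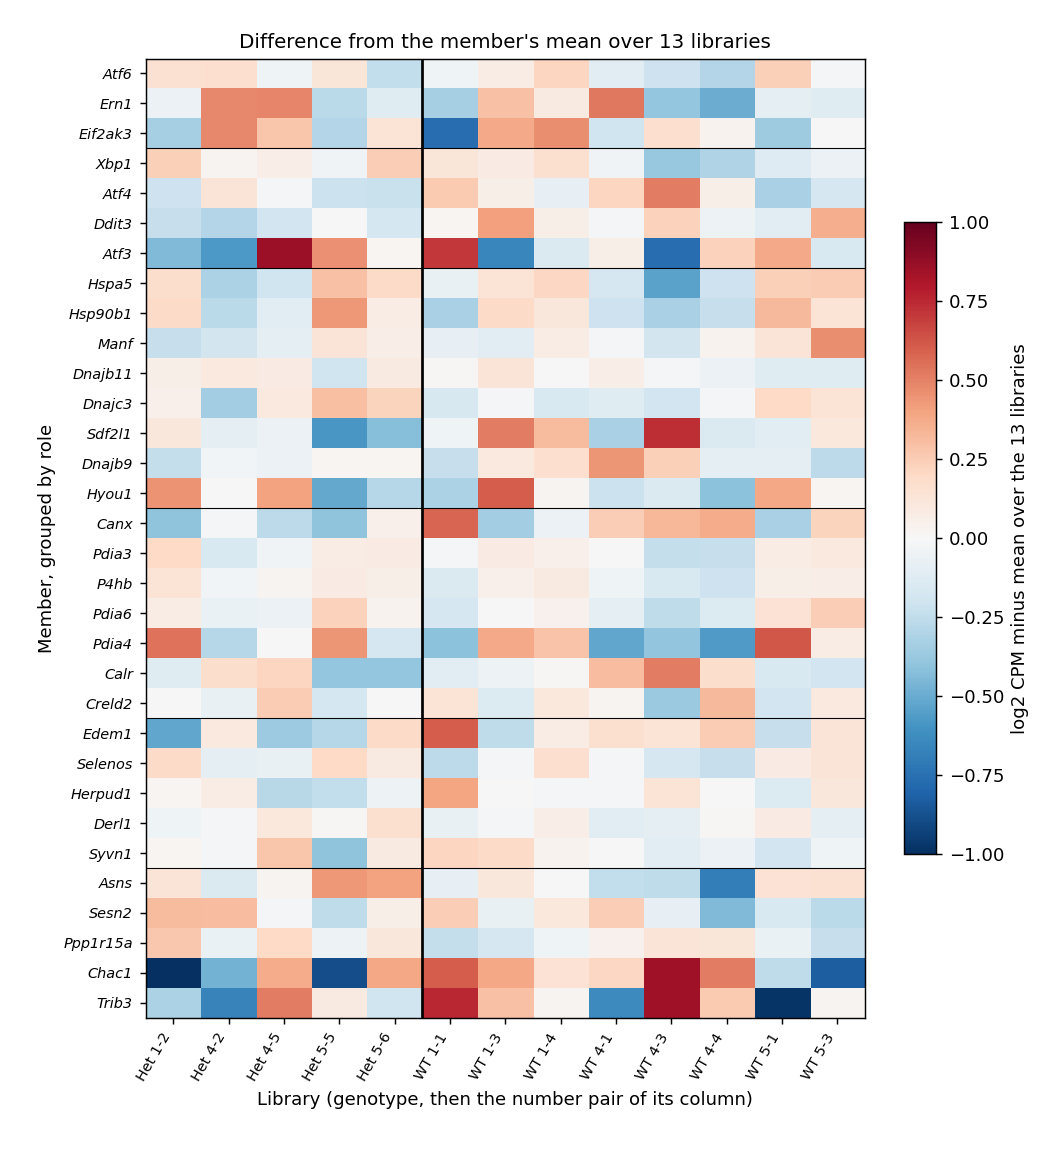
Difference of each member's log2 CPM from its mean over the 13 libraries, with 5 Het libraries left of the line and 8 WT libraries right of it, and members in rows by role. Columns of prefix 4 are low for Hspa5 and Hsp90b1 and high for Calr in both genotypes, and Canx and Edem1 stand out in WT 1-1.

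The other genes of the pathway also held no call. In 5 lists with 175 genes, 168 were tested, and edgeR called 0 of them, against 0.0857% of all genes. An unadjusted p under 0.05 was found for 14 of the 168, against 6.90% of all genes. The log2 fold change was positive for 104 and negative for 64, where 49.1% of all genes were positive. Its median was 0.03. Genes of the translocon, signal peptidase and oligosaccharyltransferase, which bring chains into the ER and glycosylate them, were positive in 26 of 34 cases with a median of 0.08. In this list Sec11c, a signal peptidase subunit gene, had 0.33 ± 0.14 (adjusted p = 0.675) and Magt1, an oligosaccharyltransferase subunit gene, had -0.21 ± 0.10 (adjusted p = 0.714). Other ER chaperones and folding enzymes had 21 positive of 38 and a median of 0.01, led by the isomerase gene Txndc5 (0.21 ± 0.08, adjusted p = 0.636) and the prolyl isomerase gene Fkbp9 (0.29 ± 0.12, adjusted p = 0.666).

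Other degradation genes had 19 positive of 32, with Herpud2 at -0.27 ± 0.13 (adjusted p = 0.717). Other genes of the ATF4 program had 25 positive of 42, with the serine synthesis gene Phgdh at -0.53 ± 0.19 (adjusted p = 0.551) and Mars at 0.28 ± 0.11 (adjusted p = 0.611). Phgdh and Asns, both known ATF4 targets, thus had estimates of opposite sign. Other transducers had 13 positive of 22, with Traf2, an adaptor of IRE1, at 0.27 ± 0.11 (adjusted p = 0.635) and Mbtps1, the protease gene that starts ATF6 cleavage, at 0.27 ± 0.12 (adjusted p = 0.685).

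Cytosolic heat shock genes, which answer stress outside the ER, were positive in 10 of 23 cases with a median of -0.01 and 0 called by edgeR (0 also at an unadjusted p under 0.05). Hspa4l had -0.21 ± 0.10 (adjusted p = 0.731) and Hspa1b -0.66 ± 0.43 (adjusted p = 0.791). Immediate-early genes, which react to tissue handling, were positive in 9 of 24, with 0 called and 1 at an unadjusted p under 0.05. Among them Gadd45b had -0.46 ± 0.17 (adjusted p = 0.574) and Myc -0.21 ± 0.13 (adjusted p = 0.786). Of the cell type lists, 0 of 12 osteoblast markers and 0 of 11 skeletal muscle markers were positive, with medians of -0.16 and -0.80, and neither list had a call. Muscle markers summed to 14.4 to 92.6 CPM in Het and 12.5 to 216 CPM in WT. Positive estimates numbered 9 of 19 for enamel organ markers, 1 of 9 for odontoblast and pulp, 1 of 10 for osteoclast, 5 of 11 for fibroblast, 7 of 11 for endothelium and pericyte, 9 of 13 for immune cell and 3 of 7 for erythroid markers. In each of these lists 0 genes were called by edgeR. An unadjusted p under 0.05 was found for 3 of 10 osteoclast markers and for 0 to 2 genes of each other list, against 6.90% of all genes. Of 9 salivary gland markers, 4 were at 0 in every library.

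With edgeR, 3 of the 32 members differed between library prefixes past the threshold, a share near that of all genes. An F-test of the prefix with genotype as a term in edgeR, a test chosen after the data were seen, called 992 of 16328 genes (6.08%) and 3 of the 32 members (9.38%): Calr (adjusted p = 0.00706), Asns (adjusted p = 0.0195) and Hspa5 (adjusted p = 0.0272). The count of members was 1 without Het 4-2, Het 5-5 or WT 5-1, 5 without Het 5-6 and 6 without WT 1-1. The raw share of variance between prefixes, taken without a genotype term, had a median of 27.5% over members and 22.9% over all genes. It was over 50% in 9 of 32 members and in 16.5% of all genes. Such a share lies above 0 also where the prefix plays no part. DESeq2's likelihood ratio test called 10 of 32 members (31.2%) against a background of 15.5% of 13787 genes. Beside those 3 it called Hsp90b1, Pdia4, Manf, Pdia6, Atf4, Dnajc3 and Pdia3. No source used here says what the prefix stands for, and what underlies these differences was not tested.

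Hspa5 and Calr took opposite orders over the prefixes. Hspa5 ran from 8.99 to 9.36 in the 5 libraries of prefix 4, from 9.45 to 9.73 in the 4 of prefix 1 and from 9.72 to 9.82 in the 4 of prefix 5. Calr ran from 6.99 to 7.33 in prefix 4, from 6.69 to 6.83 in prefix 1 and from 6.43 to 6.66 in prefix 5. The 3 ranges of Calr did not overlap, and for Hspa5 only those of prefixes 1 and 5 overlapped. Within a prefix the genotypes lay close together: Het minus WT was 0.08, 0.05 and 0.00 for Hspa5 and -0.08, -0.13 and -0.21 for Calr in prefixes 1, 4 and 5.

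Asns averaged 5.05 ± 0.27 in prefix 4 (SD, n = 5), 5.36 ± 0.10 in prefix 1 (n = 4) and 5.60 ± 0.16 in prefix 5 (n = 4). Hsp90b1 had the order of Hspa5, with means of 7.90 ± 0.08 in prefix 4, 8.17 ± 0.25 in prefix 1 and 8.37 ± 0.17 in prefix 5. Pdia4 averaged 6.38 ± 0.23 in prefix 4, 6.94 ± 0.42 in prefix 1 and 6.98 ± 0.35 in prefix 5. Atf4 ran the other way, like Calr, at 6.37 ± 0.21 in prefix 4, 6.20 ± 0.20 in prefix 1 and 5.96 ± 0.07 in prefix 5. Of 15 chaperone genes, 2 to 5 stood above their own median in a library of prefix 4, 3 to 11 in prefix 1 and 9 to 12 in prefix 5. Over all 32 members these ranges were closer, with 8 to 14 in prefix 4, 13 to 20 in prefix 1 and 14 to 19 in prefix 5. No such count was made over all genes. WT 1-1 gave the lowest count of prefix 1.

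The call on Calr held in each fit that left out 1 library. That on Hspa5 was lost without Het 4-2 (adjusted p = 0.0878), Het 4-5 (0.0634), Het 5-5 (0.0771), WT 5-1 (0.0634) or WT 5-3 (0.0629), and that on Asns without Het 4-2 (0.059), Het 5-5 (0.055) or WT 5-1 (0.0559). In all, 1 member was called without Het 4-2, Het 5-5 or WT 5-1, 5 without Het 5-6 and 6 without WT 1-1. Without any single library other than these, 2 or 3 members were called. Osteoblast markers summed to 5764 to 9364 CPM in prefix 4, 5198 to 6657 in prefix 1 and 3771 to 4630 in prefix 5. In the same order, the enamel organ list summed to 202935 to 288294 CPM, 234312 to 315182 CPM and 308976 to 346564 CPM. The sums of the other cell type lists overlapped over all 3 prefixes. The prefix test called 2 of 12 osteoblast markers (16.7%) and 1 of 19 enamel organ markers (5.26%), against 6.08% of all genes. It called 3 of 11 fibroblast and 3 of 11 endothelium and pericyte markers (27.3% each), and 0 or 1 in every other cell type list. The part of these lists in the members' values was not tested.

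**Figure D4:**
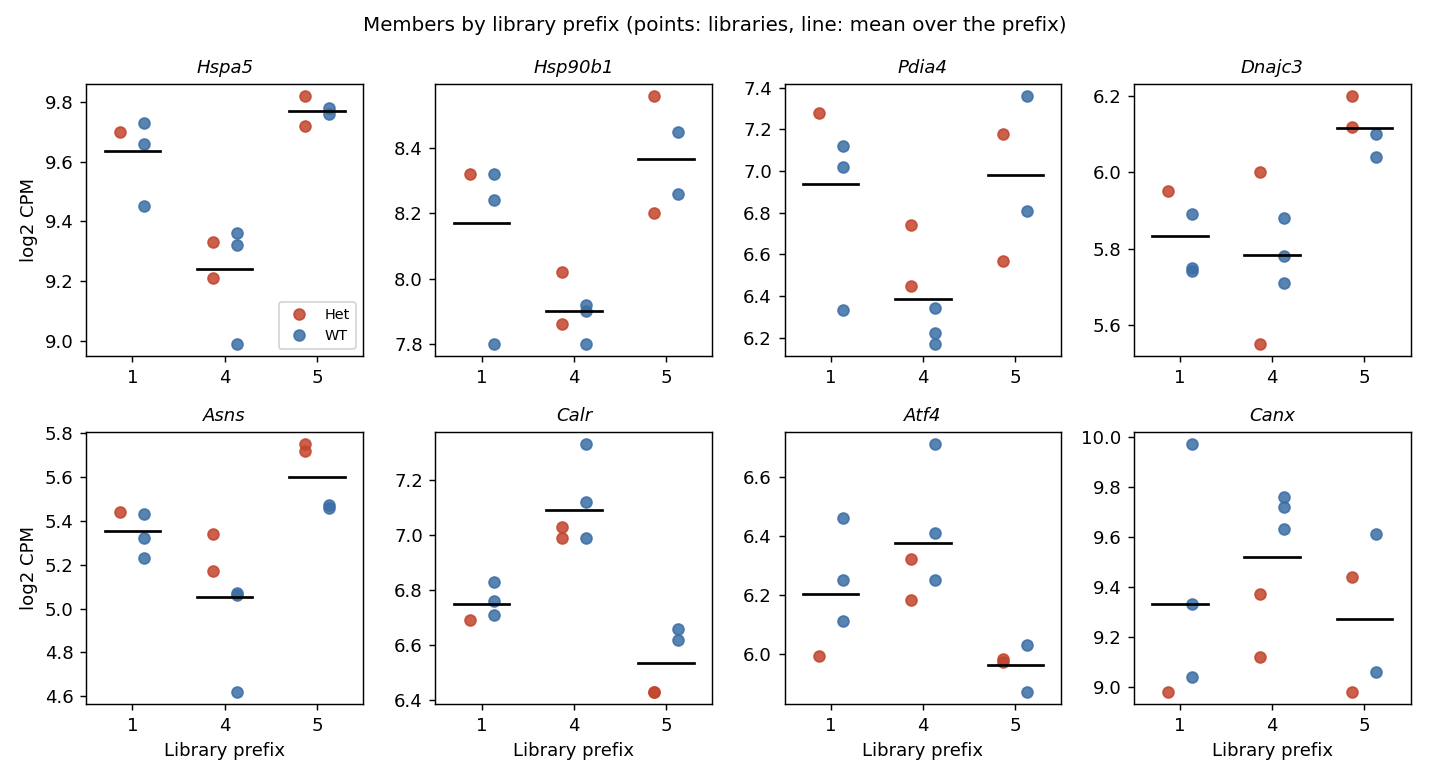
Log2 CPM of 8 members by library prefix, with Het points left of WT points in each prefix and a line at the prefix mean. Hspa5 is lowest in prefix 4 (8.99 to 9.36) and highest in prefix 5 (9.72 to 9.82), Calr has the reverse order, and the ranges of Canx overlap over all 3 prefixes.

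Hspa5 and Calr both hold a full stress element before their start sites, although their levels took opposite orders over the prefixes. A search of RefSeq promoter windows (250 bases before the start to 50 after it, GRCm38.p6, both strands) for CCAAT, any 9 bases and CCACG found it in 8 of the 28 members with a window (28.6%), against 39 of 32851 windows of all genes (0.119%). The element is known from chaperone genes and the members were chosen by function, so these shares are a description and not a test. Manf, Derl1, Hyou1 and Atf6 have no window in the table. The 8 members are chaperone and isomerase genes and 1 ubiquitin ligase gene, and Hsp90b1 holds 2 elements. Each is shown with 6 bases on either side, in the direction of the gene, and capitals mark the 2 parts. On the opposite strand the parts read CGTGG and ATTGG.
Hspa5: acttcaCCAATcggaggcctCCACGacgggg
Hsp90b1, first: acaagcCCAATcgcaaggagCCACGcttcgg
Hsp90b1, second: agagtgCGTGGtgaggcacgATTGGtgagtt
Dnajc3: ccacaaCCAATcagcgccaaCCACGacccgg
Calr: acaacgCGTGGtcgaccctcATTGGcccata
Canx: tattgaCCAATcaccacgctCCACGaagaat
Pdia6: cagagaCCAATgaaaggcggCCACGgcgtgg
Creld2: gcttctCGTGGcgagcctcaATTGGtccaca
Syvn1: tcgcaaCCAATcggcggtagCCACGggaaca

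The window of Calr (chr8:84846932-84847181, minus strand) holds its element farther from the start than that of Hspa5, with bases -162 to -144 against -65 to -47 for Hspa5, counted from the start site as 1. Its 250 bases before the start are shown for comparison with those of Hspa5.
Calr: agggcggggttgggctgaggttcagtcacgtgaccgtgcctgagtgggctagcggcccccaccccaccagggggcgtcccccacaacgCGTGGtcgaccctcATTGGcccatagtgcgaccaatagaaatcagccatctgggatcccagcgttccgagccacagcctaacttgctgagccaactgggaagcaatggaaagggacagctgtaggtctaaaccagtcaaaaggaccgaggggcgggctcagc

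A second form of the element, ATTGG, 1 base and CCACG, was searched for after the first results were seen and lies in the windows of 2 members (7.14%) against 0.0365% of all windows. It is the form known from the human HERPUD1 promoter, and capitals mark its 2 parts.
Herpud1: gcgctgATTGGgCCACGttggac
Dnajb11: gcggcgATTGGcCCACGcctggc

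The core of the element bound by C/EBP and ATF factors, TGATGNAA, lies in 5 members' windows (17.9%) against 3.97% of all windows. Asns, Chac1, Trib3 and Atf3 are genes of the ATF4 arm, and the fifth is Herpud1. Capitals mark the fixed letters of the core. In the last 4 genes it lies on the opposite strand, where it reads TT, 1 free base and CATCA.
Asns: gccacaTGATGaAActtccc
Chac1: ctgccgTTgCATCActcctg
Trib3: tcaggtTTaCATCAgccggg
Atf3: tcgcacTTgCATCAccaagt
Herpud1: ggcgggTTgCATCAgcccgc

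In the 250 bases before the start of Asns (chr6:7693210-7693459, minus strand), the member with the largest positive estimate, the core lies at bases -23 to -16.
Asns: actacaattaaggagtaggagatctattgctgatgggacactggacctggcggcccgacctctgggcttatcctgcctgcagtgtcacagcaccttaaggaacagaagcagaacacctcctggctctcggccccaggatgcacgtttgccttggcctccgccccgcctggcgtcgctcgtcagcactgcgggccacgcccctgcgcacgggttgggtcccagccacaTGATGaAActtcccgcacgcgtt

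The part CCACG alone was in 22 of 28 windows (78.6%), against 32.8% of all windows, and CCAAT in 23 of 28 (82.1%), against 37.4%. The remaining 14 members with a window hold none of the 3 longer motifs, Xbp1, Pdia4, Pdia3 and P4hb among them. These are matches of letters in windows of 300 bases, and no binding was measured. All motifs searched are known from genes of these pathways, so a higher share among the members tests nothing. Members with the full element had estimates of both signs between Het and WT, from -0.36 for Canx to 0.11 for Dnajc3. Those with the C/EBP and ATF core ranged from -0.49 for Chac1 to 0.27 for Asns.

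**Figure D5:**
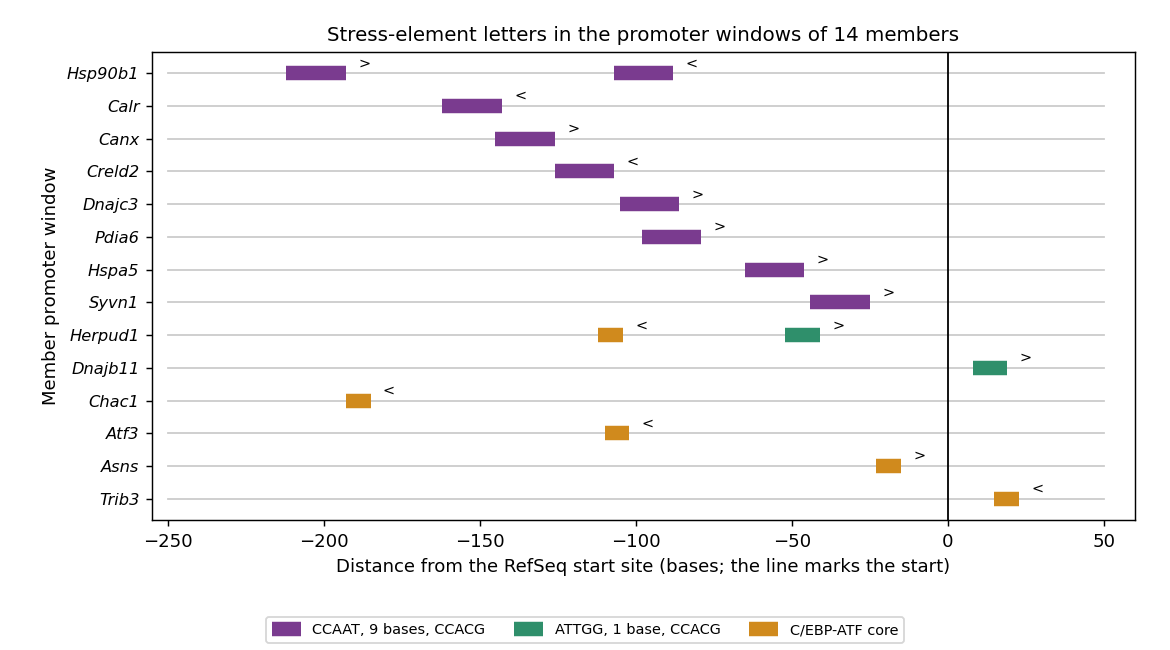
Position of the 3 longer motifs in the promoter windows of 14 members, in bases from the RefSeq start site, with arrows for the strand relative to the gene. The full element lies upstream of the start in all 8 genes that hold it, from -212 in Hsp90b1 to -26 in Syvn1, and the second form in Dnajb11 and the core in Trib3 lie after it.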

How the data were processed

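Gene counts of 5 Het and 8 WT enamel organ libraries were analysed. The authors deposited raw counts for 48733 features, and 24 of these that are no mouse gene (at most 0.000177% of a library) were left out. Per the submitters' processing notes, STAR 2.5.2a and build GRCm38 were used. Per the labels' protocols, libraries came from an unstranded kit and were read as 75-base single reads in 2 runs. No source used here gives the counting rule. A filtered count table the authors deposited served as an alternative filter. A signal table the authors deposited, CPM with TMM scaling by its name, served as a check of scale only.

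The main test was the quasi-likelihood F-test of edgeR 4.0.16 (R 4.3.3) with robust dispersions and TMM factors, after filterByExpr with a count minimum of 10. P-values were adjusted by Benjamini-Hochberg over 16328 genes, at a threshold of 0.05. TMM factors ran from 0.92 to 1.09, and the common coefficient of biological variation was 0.227. Standard errors and 95% intervals come from this fit. Values per library are log2 CPM with a prior count of 2. TPM was computed from exon-union lengths of GENCODE M21. Alternatives were other scalings and filters, DESeq2 1.42.0, limma 3.58.1 (voom with sample weights), the library prefix as a term, and leaving out libraries or prefixes.

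The columns name genotype and a number pair but no replicate number of the labels, so they were assigned to genotypes only. Over 78 library pairs the lowest chi-square per gene was 11.4, so no library counted as a repeat. In data simulated for Het against WT with 16328 genes, 31.3% of 67 genes changed 1.5-fold, 67.2% of 67 changed 2-fold and 92.4% of 66 changed 4-fold were recovered, and 9 unchanged genes were called. Members were searched for copies elsewhere with BLAST 2.17.0 (at least 75 bases at 97% identity), and matches lay only in genes of the same locus.

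Members and lists were chosen with earlier results of these data known. Per-library values are given for Hspa5, Hsp90b1, Atf4, Xbp1, Ddit3, Atf3, Ern1, Eif2ak3 and Atf6, for the 8 members of smallest p, for the 2 highest and 2 lowest in TPM, and for members past the threshold in any fit. Other genes named are the 2 of smallest p in each pathway and technical list. The values of 1 such gene are not reported here. Genes of cell type lists are given as lists only. The test of the prefix and the second form of the stress element were added after the data were seen.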

Additional observations from a re-analysis of the deposited data

Results flagged for a closer look

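Dnajb11, which encodes an ER co-chaperone of BiP, stood at 5.25 log2 CPM in Het 5-5, against 5.51 to 5.55 in the other 4 Het libraries. It was singled out because this library lay far from the rest of its group. It was 1 of 64 groups tested (32 members in 2 genotypes), and chance flags about 1 in 20 groups. The WT libraries ran from 5.33 to 5.58, so Het 5-5 also lay below all of them.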

How the results depend on the processing

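No paired analysis was possible because the columns carry no replicate numbers of the labels, and the library prefix, which both genotypes share, was fitted as a term without pairing single libraries. Among 26 other fits of Het against WT, 0 members were called in any. The count over all genes, 14, became 24 with total library size alone, 27 without a filter, 25 with at least 1 CPM in 5 libraries, 74 with DESeq2, 27 with limma-voom, 30 with the prefix as a term, 0, 1 and 2 without prefixes 1, 4 and 5, and 2 without Het 1-2 and WT 1-4, which had the highest muscle markers. It ran from 6 (without Het 4-2 or Het 5-6) to 22 (without WT 5-1) leaving out 1 library. The causes were not tested. The members' median was 0.116 with total library size alone, which moved the median of all genes to 0.066, and -0.040 without prefix 4, and 0.021 to 0.076 leaving out 1 library.

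Of 832 member values under other settings, 54 changed sign and none passed the threshold, and 24 members kept their sign throughout. Creld2 and Syvn1, both near 0, became 0.000549 and 9.78e-05 with RLE factors, 0.07 and 0.07 with total library size, 0.00522 and 0.00489 without a filter, 0.00257 and 0.00219 in the authors' filtered table, 0.000695 and 0.000359 with DESeq2, 0.01 and 0.04 with the prefix as a term, 0.02 and 0.09 without prefix 1, 0.04 and 0.05 without prefix 5, and 0.02 and 0.00502 without the 2 libraries of highest muscle markers. With limma-voom, Creld2 became 0.00514 and Eif2ak3 -0.06. Without prefix 4, Eif2ak3 became -0.16, Ern1 -0.12, Atf6 -0.07, Atf3 -0.03 and Hyou1 -0.24. Hyou1 became -0.00512 without prefix 1 and -0.09 without the 2 muscle-high libraries, and Hspa5 -0.00376 without prefix 5. Leaving out 1 library gave -0.06 to 0.05 for Creld2, -0.07 to 0.09 for Syvn1, -0.04 to 0.17 for Eif2ak3, -0.10 to 0.29 for Atf3, -0.09 to 0.14 for Hyou1 and -0.01 to 0.13 for Hspa5.

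For the test between prefixes, whose alternatives were also chosen after seeing the data, the counts of 992 genes and 3 members became 1866 and 5 without a filter and 2140 and 10 with DESeq2, and leaving out 1 library gave 280 to 1466 genes and 1 to 6 members. Low counts limit Chac1, Trib3, Atf3 and Ddit3 most.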
